A study of Mus musculus with 6 samples.

Results

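Polyunsaturated fatty acid desaturases and elongases were followed in livers of a mouse model of chronic hyperlipidaemia made with poloxamer P-407, a block copolymer known to inhibit lipoprotein lipase. The genes were Fads1, Fads2, Fads3, Scd2, Elovl1, Elovl2, Elovl3 and Elovl5, 8 of the 17347 genes that a feature of either array names on its own, and they were found by the mouse gene symbol annotated to each feature. The treated group was 12 female C57BL/6 mice, 7 weeks old at the start and kept on a chow diet with 4.4% fat, that were injected with P-407 at 0.5 g/kg into the peritoneum at intervals of 3 days. The control group was 4 female C57BL/6 mice of the same age and diet that were injected with normal saline on the same schedule. Liver RNA from day 96 formed 3 pools of treated animals and 1 pool of control animals. The pools hide the spread between single animals, and the sources used here do not say which mouse went into which pool. Each treated pool, labelled with Cy5, was hybridised with the control pool, labelled with Cy3, on 1 oligonucleotide array and 1 cDNA array.

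Mammals cannot make linoleic and alpha-linolenic acid, but the liver turns these dietary fatty acids into arachidonic acid, eicosapentaenoic acid and docosahexaenoic acid by alternating desaturation and elongation in the endoplasmic reticulum. Fads2 inserts the first double bond, Elovl5 lengthens the product, Fads1 inserts the next double bond, and Elovl2 carries the longest polyunsaturated chains further. These genes are classical targets of the lipogenic transcription factor SREBP-1 and of the fatty acid receptor PPAR alpha, and dietary polyunsaturated fatty acids are known to lower the messenger RNA of Fads1 and Fads2 in liver. Scd2 makes monounsaturated fatty acids, while Elovl1 and Elovl3 lengthen saturated and monounsaturated chains.

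All values are log2 ratios of P-407 over saline, centred on each array's median, so a positive value means more of the transcript in treated livers. The oligonucleotide array carried 1 feature for each of the 8 genes and measured all 8 on 3 arrays. The cDNA array carried 1 feature each for Fads2, Elovl1, Elovl2, Elovl3 and Elovl5, of which Elovl5 had no value for pool 2. The intervals printed beside the means come from limma, which draws part of each gene's variance from all genes tested. Their width therefore does not follow from the printed SD and number of pools, and can be narrower or wider than those alone would give. Calls were made with limma across all genes of an array type at a Benjamini-Hochberg adjusted p under 0.05. On the oligonucleotide array 43.4% of 16871 genes passed that threshold, 22.0% higher and 21.4% lower in P-407 livers, so a call on that array is common. Of 862 genes with symbols of chemosensory receptors, most of which have no known use in liver, 36.1% were called. Their median absolute log2 ratio was 0.11. The files hold ratios without intensities, so neither the level of a transcript nor the presence of liver markers could be read, and in whole liver a change in the cells that hold a transcript cannot be told apart from a change in RNA per cell.

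Among the 8 genes, the desaturases of the polyunsaturated pathway fell, while the desaturases Fads3 and Scd2 rose. Fads1 and Fads2 were lower in all 3 treated pools, by 1.48-fold and 1.30-fold, and Fads3 and Scd2 were higher in all 3, by 1.41-fold and 1.23-fold. Of the 8 genes, 4 were called higher and 2 lower on the oligonucleotide array, beside the 22.0% and 21.4% of all genes. With no shared prior, where each gene's spread rests on its own 3 arrays, none of the 8 was called, and 40 of all genes were. The 6 genes otherwise called then had adjusted p from 0.0678 to 0.213. The 8 genes ranged from -0.56 to 0.50 with a median of 0.18, against a median of 0.00 over all 16871 genes.

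**Figure D1:**
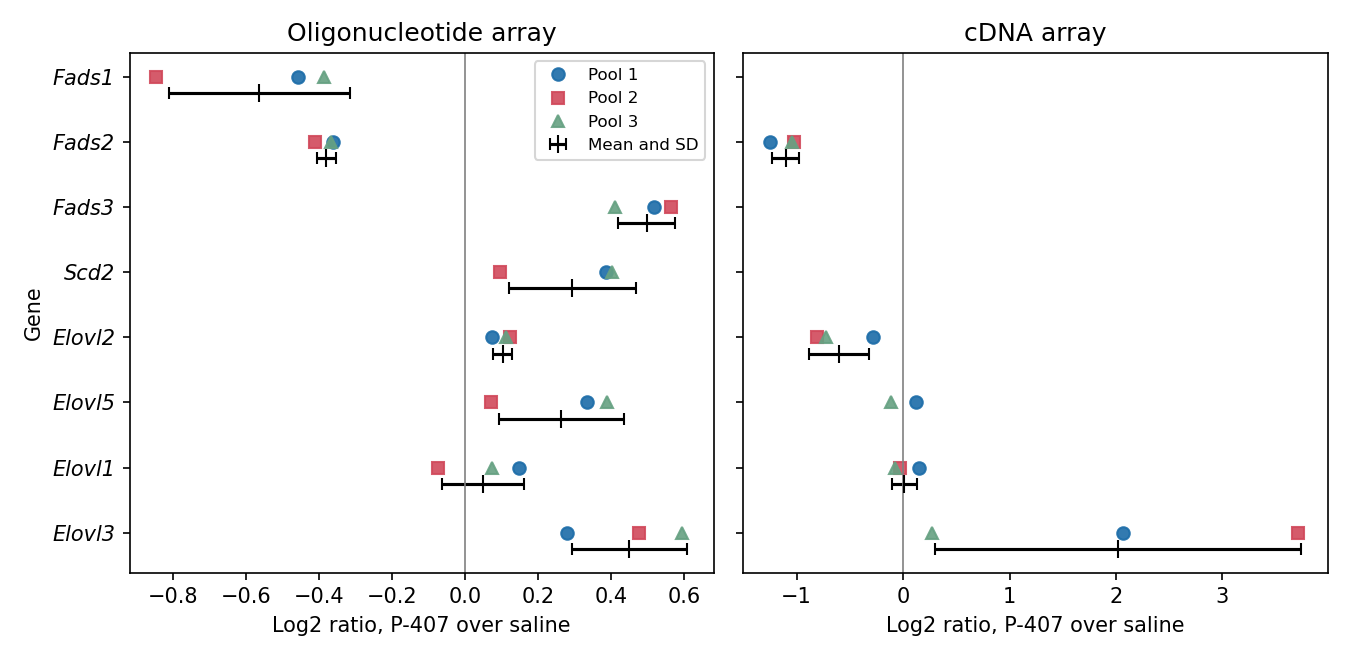
Log2 ratios of P-407 over saline for the 8 desaturase and elongase genes, with 1 symbol per treated pool and the mean and SD of 3 pools beneath. On the oligonucleotide array the Fads1 and Fads2 symbols all lie left of 0 and those of Fads3, Scd2, Elovl2, Elovl5 and Elovl3 right of it. On the cDNA array, with its wider axis, Fads2 and Elovl2 lie left of 0 and Elovl3 reaches 3.71.

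Fads1, the desaturase whose products include arachidonic acid, had ratios of -0.46, -0.85 and -0.39 in pools 1, 2 and 3. Pool 2 was the lowest, and no pool reached 0. The mean was -0.56 ± 0.25 (SD, n = 3 pools, limma 95% interval -0.79 to -0.34, limma adjusted p = 0.00539), and 3.86% of all genes lay at least as far from 0. With no shared prior the limma adjusted p of Fads1 was 0.146.

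Fads2, which starts the pathway, had ratios of -0.36, -0.41 and -0.37 in the same pools. The pools lay close together, and the mean was -0.38 ± 0.03 (SD, n = 3 pools, 95% interval -0.48 to -0.28, limma adjusted p = 0.00153). Among all genes 10.5% were at least as far from 0, and among the chemosensory receptors 6.84% were. For Fads1 the corresponding share of chemosensory receptors was 1.62%. Fads1 and Fads2 differed from each other by -0.18 ± 0.22 (Fads1 minus Fads2, SD of 3 pools), with most of that difference in pool 2.

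Fads3, a relative of Fads1 and Fads2 that introduces a double bond into sphingoid bases, had ratios of 0.52, 0.56 and 0.41. Its mean of 0.50 ± 0.08 (SD, n = 3 pools, 95% interval 0.38 to 0.61) had the smallest p among the 8 genes (limma adjusted p = 0.00117). All 3 pools lay above every pool of Fads1 and Fads2. Fads3 minus Fads2 was 0.88, 0.97 and 0.78 in pools 1, 2 and 3. Differences between the genes are given as values and were not tested. An exact sign-flip permutation test over 3 pools cannot give a two-sided p under 0.25.

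The promoters of Fads2 and Fads3 are shown because these neighbours on chromosome 19 had ratios of opposite sign. Both come from the RefSeq promoter table of build GRCm38.p6, reaching from 250 bases before to 50 bases after the annotated start, 5′ to 3′ on the gene's own strand. Capitals mark the matches to any motif searched, and here these are CCAAT (the NF-Y box) and GGGCGG (the Sp1 box), read on both strands.
Fads2, chr19:10101454-10101753, minus strand: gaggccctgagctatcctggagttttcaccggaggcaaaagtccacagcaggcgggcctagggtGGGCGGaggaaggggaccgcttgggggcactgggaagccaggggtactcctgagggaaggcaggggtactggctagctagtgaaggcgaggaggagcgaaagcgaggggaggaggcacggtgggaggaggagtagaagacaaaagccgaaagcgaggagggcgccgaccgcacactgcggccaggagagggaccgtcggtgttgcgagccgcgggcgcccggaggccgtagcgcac
Fads3, chr19:10041298-10041597, plus strand: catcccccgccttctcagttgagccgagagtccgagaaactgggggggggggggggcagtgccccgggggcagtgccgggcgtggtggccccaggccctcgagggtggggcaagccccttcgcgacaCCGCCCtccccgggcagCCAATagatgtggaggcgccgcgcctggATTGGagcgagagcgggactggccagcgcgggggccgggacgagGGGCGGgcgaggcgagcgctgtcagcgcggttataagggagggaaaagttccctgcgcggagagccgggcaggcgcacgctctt
Fads2 held 1 GGGCGG and no CCAAT, and Fads3 held 2 of each. In the table of 32851 promoters 37.4% held CCAAT and 35.7% held GGGCGG. The motifs TCACNCCAC (a sterol regulatory element), CACGTG (the E-box) and direct repeats of AGGTCA with 4 bases between them (an LXR element) or 1 base (a PPAR element) had no match in these windows and stood in 1.24%, 7.15%, 0.0152% and 0.0396% of all promoters. No 2 of the marked matches overlap.

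Scd2, the stearoyl-CoA desaturase that is prominent outside the adult liver, had ratios of 0.38, 0.09 and 0.40. Pool 2 lay well below the others but stayed above 0. The mean was 0.29 ± 0.17 (SD, n = 3 pools, 95% interval 0.12 to 0.46, limma adjusted p = 0.0189). At least as far from 0 lay 17.9% of all genes and 14.0% of the chemosensory receptors. The call was lost without pool 1 (adjusted p = 0.0969) and without pool 3 (adjusted p = 0.0677). In those settings 23.9% and 37.0% of all genes were called, against 43.4% with all pools. Scd1, the main stearoyl-CoA desaturase of adult liver, went the other way, with ratios of -0.29, -0.66 and -0.11 and a mean of -0.35 ± 0.28 (limma adjusted p = 0.0329). Scd2 minus Scd1 was 0.68, 0.75 and 0.52 in the 3 pools. Both genes had their lowest ratio in pool 2, and the difference between them varied less than either gene's own ratio.

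The 3 Fads genes and the Scd genes lie in a pair of clusters on chromosome 19 (GRCm38.p6), at 10040855 to 10060113 for Fads3, 10062765 to 10101503 for Fads2, 10182877 to 10196874 for Fads1 and 44293676 to 44306864 for Scd2. No other protein-coding gene starts between the Fads genes. Of 14 listed genes beside the clusters, 7 were measured on the oligonucleotide array, with 2 called higher and 3 lower. Among all genes on that array 22.0% were called higher and 21.4% lower. Rab3il1, next to Fads3, had a mean of 0.42 ± 0.15 (limma adjusted p = 0.00466), and Tmem258, beyond Fads1, one of -0.38 ± 0.10 (limma adjusted p = 0.00308). Best1, on the far side of Rab3il1, had a mean of -0.38 ± 0.07. Beside the Scd genes Wnt8b had a mean of 0.30 ± 0.18 and Hif1an, the asparaginyl hydroxylase of HIF, one of -0.22 ± 0.07. Without pool 1 or without pool 2, 1 of these genes was higher in place of 2. Over all 16 measured genes within 7 places of Fads1 or Scd2 other than these enzymes themselves, listed or not and with Scd1 among them, 4 were higher, 6 lower and 6 not called. The unlisted genes called there, named after their values were seen, were Incenp (0.61), Cyp2c23 (0.46), Erlin1 (-0.20) and Pax2 (-0.22). On the cDNA array Wnt8b averaged -0.39 ± 1.26, with pools on both sides of 0.

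**Figure D2:**
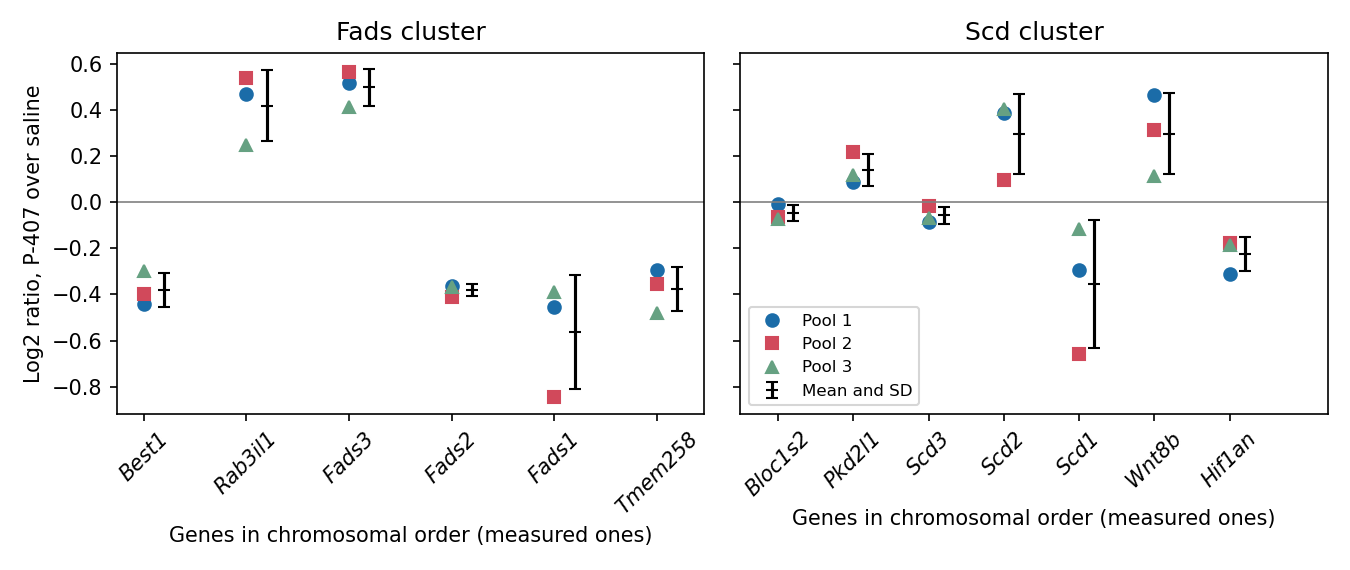
Log2 ratios on the oligonucleotide array for the listed and measured genes of the Fads and Scd clusters, in chromosomal order at even spacing, with 1 symbol per pool and the mean and SD of 3 pools beside it. Fads3 and Rab3il1 lie above 0 in every pool, while Fads2, Fads1 and Tmem258 lie below it, and Scd2 lies above 0 where Scd1 lies below.

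Among the elongases, Elovl3 and Elovl5 rose by 1.37-fold and 1.20-fold and Elovl1 and Elovl2 did not pass the threshold. Elovl5, the partner of Fads2 and Fads1 in the same pathway, thus had the opposite sign to both desaturases. Its ratios were 0.33, 0.07 and 0.39, with pool 2 again the lowest. The mean was 0.26 ± 0.17 (SD, n = 3 pools, 95% interval 0.09 to 0.43, limma adjusted p = 0.0257), and 21.7% of all genes and 16.4% of the chemosensory receptors lay at least as far from 0. Without pool 1 the adjusted p was 0.121 and without pool 3 it was 0.0900, so the call needs both. Those settings called 23.9% and 37.0% of all genes, against 43.4% with all pools. The cDNA feature of Elovl5 read 0.12 in pool 1 and -0.11 in pool 3, on either side of 0.

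The Elovl5 promoter is shown because this gene alone of the pathway's desaturases and elongases was called higher. It carries 2 copies of CCAAT, both on the opposite strand, and 1 CACGTG, which are in capitals.
Elovl5, chr9:77917115-77917414, plus strand: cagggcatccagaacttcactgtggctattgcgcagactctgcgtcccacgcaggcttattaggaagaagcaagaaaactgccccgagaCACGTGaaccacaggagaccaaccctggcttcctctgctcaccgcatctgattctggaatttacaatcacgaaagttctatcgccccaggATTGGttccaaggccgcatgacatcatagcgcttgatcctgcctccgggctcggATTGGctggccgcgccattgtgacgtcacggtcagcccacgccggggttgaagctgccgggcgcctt
Of the 8 genes, 5 had an entry in the promoter table (7 promoters, Elovl1 and Elovl2 having a pair each). Fads1, Scd2 and Elovl3 were not matched. None of the 7 promoters held the sterol, LXR or PPAR motif as spelled above. These spellings are rare over all promoters, so their lack in so few short windows says little about these genes. Sequence outside the windows was not searched.

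Elovl2, which extends the longest polyunsaturated chains towards docosahexaenoic acid, had ratios of 0.07, 0.12 and 0.11 on the oligonucleotide array. The pools lay close together just above 0, with a mean of 0.10 ± 0.03 (SD, n = 3 pools, 95% interval 0.00 to 0.20, limma adjusted p = 0.0855). On this array 59.2% of all genes lay at least as far from 0.

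Elovl1, a broadly expressed elongase that serves sphingolipid synthesis, had ratios of 0.15, -0.07 and 0.07. The pools fell on both sides of 0, and the mean was 0.05 ± 0.11 (SD, n = 3 pools, 95% interval -0.08 to 0.18, limma adjusted p = 0.499). The cDNA array gave 0.15, -0.03 and -0.08 for this gene, with a mean of 0.01 ± 0.12 (95% interval -0.35 to 0.38). Both array types thus placed Elovl1 near 0.

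Elovl3, an elongase of brown fat, skin and liver that is known to be rhythmic and lower in female than in male mouse liver, had ratios of 0.28, 0.48 and 0.59. All pools were above 0, with a mean of 0.45 ± 0.16 (SD, n = 3 pools, 95% interval 0.29 to 0.61, limma adjusted p = 0.00397). On the cDNA array its ratios were 2.07, 3.71 and 0.27, a mean of 2.02 ± 1.72 (95% interval -0.10 to 4.14, limma adjusted p = 0.173). Pool 3 was the highest of the 3 on the oligonucleotide array and the lowest on the cDNA array.

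**Figure D3:**
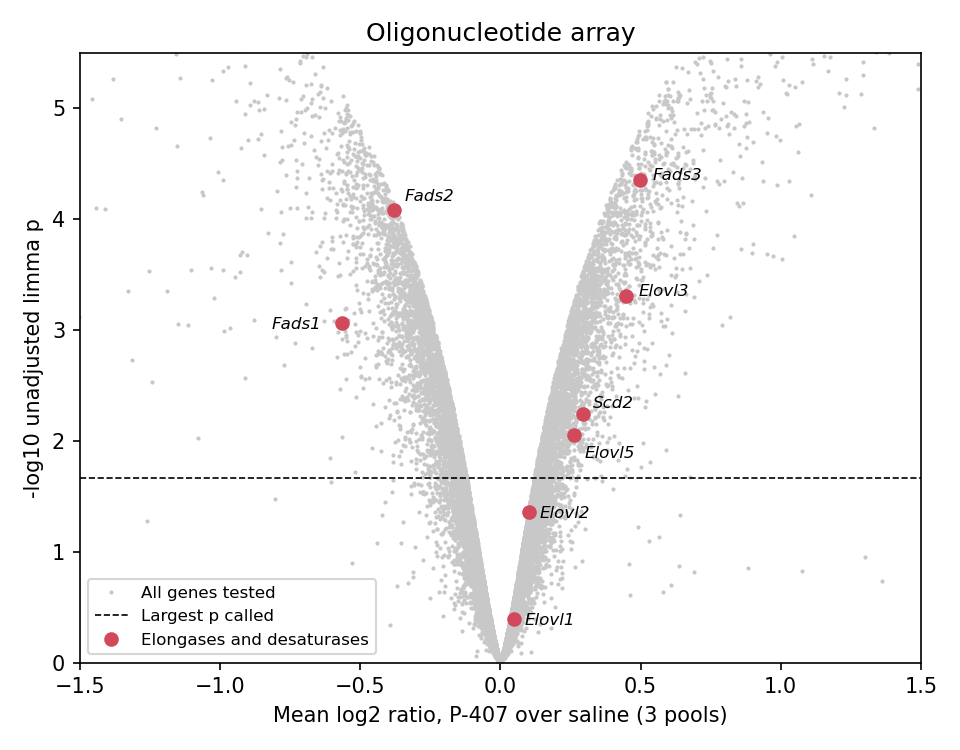
Mean log2 ratio of P-407 over saline against −log10 of the unadjusted limma p on the oligonucleotide array, for all 16871 genes (grey) and the 8 desaturases and elongases (red), with the dashed line at the largest p that was called. The horizontal axis ends at 1.5 on each side and the vertical axis at 5.5, which leaves out the most changed genes. Fads3 and Fads2 stand highest, and Elovl2 and Elovl1 lie under the line.

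The cDNA array asked the same question of the same RNA after direct labelling. Limma called none of the 4 genes measured on all 3 cDNA arrays, and 0 of 5011 genes there (0%), with 1518 genes at an unadjusted p under 0.05. A test without the shared prior called 1 gene of that array. Fads2 had the smallest p of the 4, with ratios of -1.25, -1.02 and -1.04, a mean of -1.10 ± 0.13 (SD, n = 3 pools, 95% interval -1.47 to -0.73) and a limma adjusted p of 0.0984. That mean corresponds to a level 2.15-fold lower in P-407 livers. Elovl2 had ratios of -0.28, -0.81 and -0.72 on the cDNA array, all below 0, with a mean of -0.60 ± 0.28 (95% interval -1.08 to -0.12, limma adjusted p = 0.130). Its sign was thus opposite on the array types in every pool.

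When both arrays of a pool were averaged, Fads2 alone of these 4 genes was called, and it was lower, against 5.10% of 4702 genes (2.47% higher, 2.64% lower). Its averages were -0.81, -0.72 and -0.70, and the mean was -0.74 ± 0.06 (SD, n = 3 pools, 95% interval -0.95 to -0.54, limma adjusted p = 0.0394). The call was lost without pool 1 (adjusted p = 0.356) and without pool 2 (adjusted p = 0.288), and no gene at all was called in those settings. Elovl3 averaged 1.23 ± 0.83 (limma adjusted p = 0.0985), Elovl2 -0.25 ± 0.13 (limma adjusted p = 0.133) and Elovl1 0.03 ± 0.10 (limma adjusted p = 0.804).

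The array types gave Fads2 ratios of unlike size, compared first in a test that ignored the pairing of arrays by pool. The oligonucleotide ratio was 0.72 above the cDNA ratio (95% interval 0.45 to 1.0, limma adjusted p = 0.0244), where 11.4% of 4702 genes differed (6.25% higher and 5.17% lower on the oligonucleotide array). With the pool as a block, which takes account of the shared RNA, that adjusted p was 0.130. It was 0.268 without pool 1 and 0.229 without pool 2, settings in which 0 of all genes passed the threshold. For Elovl2 the difference was 0.71 (95% interval 0.30 to 1.11, limma adjusted p = 0.0504, and 0.142 with the pool as a block). With the values left uncentred its adjusted p was 0.0418. For Elovl1 the difference was 0.04 and for Elovl3 it was -1.57 (95% interval -3.65 to 0.51), neither past the threshold. Both array types agreed on the sign of Fads2 and Elovl3 in each pool.

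How the genes varied between pools was described as each pool's deviation from the gene's own mean on the oligonucleotide array. Pool 2 was the lowest pool for 5 of the 8 genes, against 37.2% of all genes. In pool 2 Fads1 lay 0.28 below its mean (-0.28), Scd2 0.20 below (-0.20) and Elovl5 0.19 below (-0.19). The 5th and 95th percentiles over all genes in that pool were -0.15 and 0.14, so these 3 genes lay outside them. Fads2 (-0.03), Fads3 (0.07), Elovl2 (0.02), Elovl3 (0.03) and Elovl1 (-0.12) lay inside. Insig1, an anchor of the SREBP complex, deviated by -0.58 in pool 2, Scd1 by -0.30 and Elovl6 by -0.16, all below that 5th percentile. Elovl3 departed in another pool, with -0.17 in pool 1 where the 5th percentile was -0.12. Fads1, Scd1 and Insig1 were above the 95th percentile of 0.15 in pool 3, at 0.18, 0.24 and 0.49. Fads1, Scd2 and Elovl5 were thus all low in pool 2, the value by which they were picked out, although the mean of Fads1 had the opposite sign. Each pool is 1 array here, so a trait of the pool cannot be told apart from one of its hybridisation. Across genes, the deviations of a pool on the array types correlated at only 0.06, 0.07 and 0.07.

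**Figure D4:**
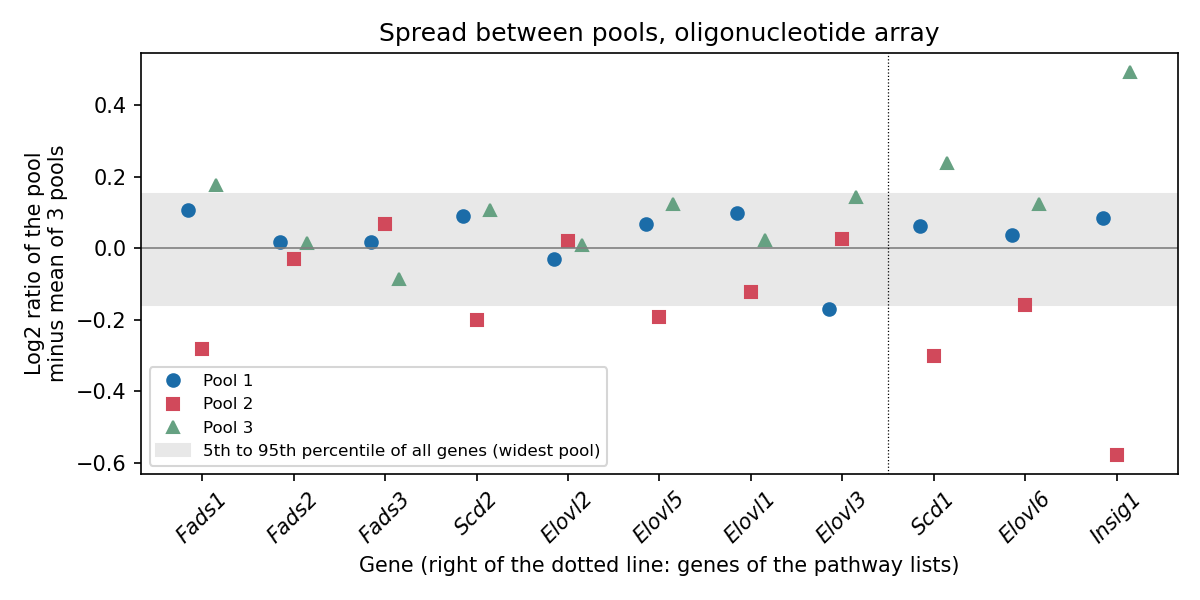
Deviation of each pool's log2 ratio from the gene's mean of 3 pools on the oligonucleotide array, for the 8 genes and, right of the dotted line, Scd1, Elovl6 and Insig1. The grey band spans the lowest 5th and highest 95th percentile of the 3 pools over all genes. The pool 2 squares of Fads1, Scd2, Elovl5, Scd1 and Insig1 fall below the band, and that of Elovl6 lies at its lower edge. Those of Fads2, Fads3, Elovl1, Elovl2 and Elovl3 lie within it.

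The partner enzymes of elongation and desaturation were described from a list of 22 genes. Of these, 20 were measured on the oligonucleotide array, and 8 were lower, 3 higher and 9 not called. Among all genes on that array 21.4% were lower and 22.0% higher. The median of the list was -0.08 against 0.00 over all genes. Elovl6, which lengthens palmitate in fat synthesis, had ratios of -0.60, -0.79 and -0.51 and a mean of -0.63 ± 0.14 (limma adjusted p = 0.00127). Elovl5 minus Elovl6 was 0.93, 0.86 and 0.90 in pools 1, 2 and 3, so these elongases kept a nearly constant distance. Tecr, the reductase that ends each elongation cycle, had a mean of -0.47 ± 0.09, its relative Tecrl one of -0.28 ± 0.07, and Elovl4, the elongase of the retina's longest chains, one of -0.31 ± 0.02. Scd1, described above, was lower too. The other 3 lower partners, named after their values were seen, were Cyb5b at -0.31, Cyb5r3, a reductase that passes electrons to the desaturases, at -0.31, and Hacd2, a dehydratase of the cycle, at -0.17. On the cDNA array Hacd2 had the opposite sign in every pool, with a mean of 0.47 ± 0.21 (limma adjusted p = 0.146). The higher partners were Hacd4 at 0.72 ± 0.13, Cyb5r1 at 0.42 ± 0.11 and Cyb5r4 at 0.21 ± 0.01.

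A further list held genes that activate fatty acids, shorten them or place them in phospholipids. Of 26 listed, 21 were measured, with 10 lower and 4 higher and a median of -0.14, beside 21.4% of all genes lower and 22.0% higher. Mfsd2a, the carrier of lysophospholipids that hold docosahexaenoic acid, was 5.64-fold lower (-2.50 ± 0.25, limma adjusted p = 1.45e-04). Acsl3, an acyl-CoA synthetase of lipid droplets, had a mean of -0.60 ± 0.17, and Abcd3 and Abcd2, peroxisomal carriers of fatty acyl-CoA, had means of -0.43 ± 0.12 and -0.25 ± 0.08. Pla2g4a, the phospholipase that frees arachidonic acid, rose by 0.53 ± 0.12 on the log2 scale, Mboat2, a lysophospholipid acyltransferase, by 0.48 ± 0.03, Hsd17b4, a peroxisomal enzyme of chain shortening, by 0.29 ± 0.08 and Acsl6 by 0.22 ± 0.14. Without pool 1, 5 genes of that list were lower, and without pool 2 or pool 3, 6.

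Genes listed as transcriptional regulators of lipogenesis did not share 1 direction. Of 22 listed, 19 were measured, with 3 higher, 6 lower and a median of -0.00. Among all genes 22.0% were higher and 21.4% lower, so calls in both directions are common on this array. Srebf1, which encodes SREBP-1, had ratios of -0.04, 0.04 and 0.07 and a mean of 0.02 ± 0.06 (95% interval -0.08 to 0.13, limma adjusted p = 0.683). Srebf2 was slightly lower (-0.18 ± 0.11, limma adjusted p = 0.0375). Ppara, the gene of PPAR alpha, had ratios of -0.64, -0.57 and -0.36 and a mean of -0.53 ± 0.15 (limma adjusted p = 0.00222). Nr1h3, which encodes LXR alpha, had a mean of 0.06 ± 0.01 (limma adjusted p = 0.297), and Mlxipl, which encodes the carbohydrate sensor ChREBP, one of -0.20 ± 0.39 (limma adjusted p = 0.287) with pool 3 on the other side of 0. The SREBP anchors split, with Insig2 at 0.92 ± 0.14 and Insig1 at -0.91 ± 0.54 (limma adjusted p = 0.0113). Thrsp, a lipogenic regulator, fell by 2.0 on the log2 scale (SD 0.22), Mlx had a mean of -0.32 ± 0.03, Pparg one of 0.30 ± 0.02 and Nfyb, a subunit of NF-Y, one of 0.24 ± 0.09. The cDNA array, on which no gene was called, gave other sizes or signs for several of these. Thrsp averaged -0.61 ± 0.62 there, Pparg 1.22 ± 0.97, Mlx 0.22 ± 0.67, Nfyb -0.13 ± 0.11 and Nr1h3 -0.48 ± 0.32. Ppara (-0.84 ± 0.22), Srebf2 (-0.80 ± 0.54), Mlxipl (-0.50 ± 0.48) and Insig2 (0.76 ± 0.20) had the same sign of the mean on both array types.

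**Figure D5:**
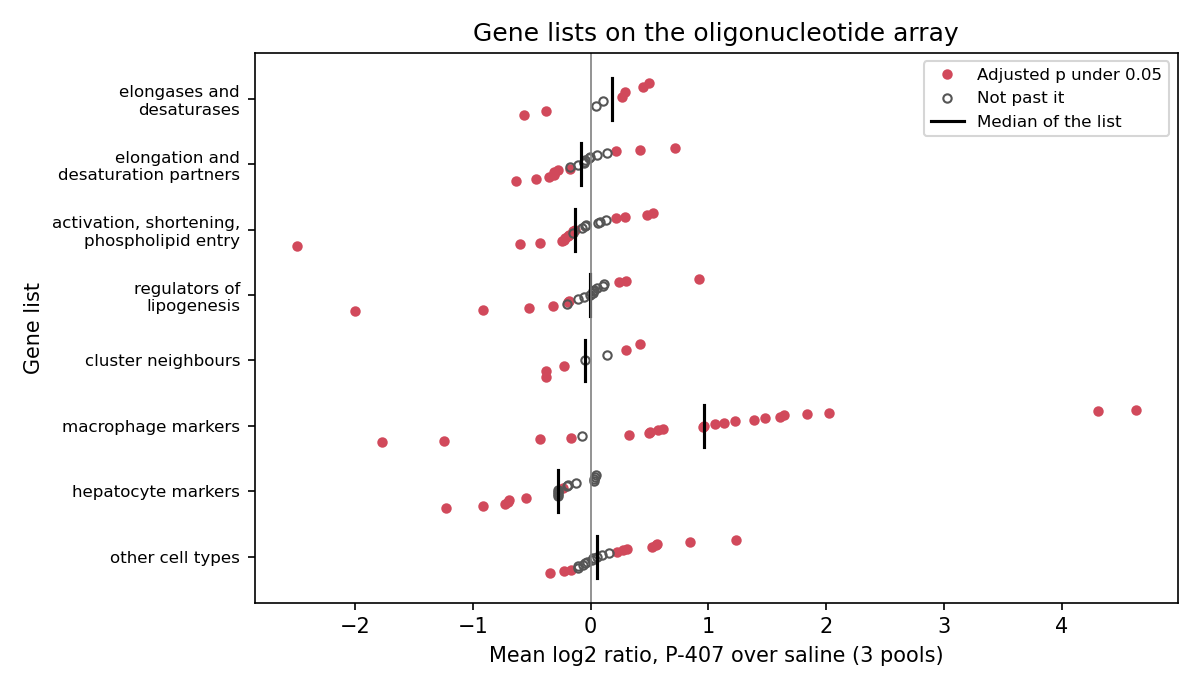
Mean log2 ratio of P-407 over saline on the oligonucleotide array for every measured gene of each list, filled red where limma's adjusted p was under 0.05 and open where it was not, with a bar at the list's median. The 8 desaturases and elongases span -0.56 to 0.50, their partners -0.63 to 0.72, and the macrophage markers reach 4.63.

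Markers of other cell types moved in the same pools, on an array where 22.0% of all genes were higher and 21.4% lower. Of 23 measured macrophage markers out of 25, 18 were higher and 4 lower, with a mean ratio of 1.13, 0.92 and 0.96 in pools 1, 2 and 3. Gpnmb and Trem2 had means of 4.63 and 4.31, Cd68 1.61 and Lyz2 1.84, while Cd163 (-1.77), Marco (-1.24), Itgam (-0.43) and Vsig4 (-0.17) were lower. Of 18 measured hepatocyte markers out of 20, 7 were lower and 0 higher, with mean ratios of -0.37, -0.36 and -0.35. In that list Alb, Ahsg, Fgb and Serpina1d carried nearly 1 ratio on each array (-0.05, -0.21 and -0.57) and do not count as separate readings. With that ratio counted once, the means over 15 readings were -0.44, -0.40 and -0.30. Among 21 markers of bile duct, endothelium, stellate cells and fat cells, 8 were higher and 3 lower, led by Fabp4 at 1.23, Col3a1 at 0.85, Pdgfrb at 0.56 and Acta2 at 0.55, with Plin1 (-0.34), Lep (-0.23) and Cdh5 (-0.17) lower. Without pool 1, 1 of these markers was lower in place of 3. On the cDNA array Acta2 had the opposite sign in every pool (-0.17, -0.24 and -0.20), as did Cdh5 (0.05, 0.20 and 0.15). Summed levels and markers at 0 cannot be given from ratios, and the part of these cell types in the ratios of the desaturases and elongases was not tested.

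The genes most like Fads3, the gene of the 8 with the smallest p, were taken as the listed genes nearest in Euclidean distance over the 3 oligonucleotide arrays, out of 136 measured. They were Mboat2 at a distance of 0.15, Rab3il1 at 0.17, C1qb, a complement gene of macrophages, at 0.20, Acta2 at 0.24 and Fcgr1, a macrophage receptor for antibodies, at 0.24. Their mean log2 ratios ran from 0.42 for Rab3il1 to 0.62 for Fcgr1. The measure rests on 3 arrays, and similar means follow from the choice by distance. Genes outside the lists were not searched.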

How the data were processed

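The authors deposited log ratios for both array types, read here as log2. The sources used here do not state the log base, background correction or normalization, and a natural log would make every fold larger. The direction, P-407 (Cy5) over saline (Cy3), was taken from the titles and dyes in the labels, and no array had exchanged dyes, so dye and treatment cannot be told apart.

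Per the labels' protocols, 10 ug of RNA was labelled directly for the cDNA arrays and 0.5 ug after linear amplification for the oligonucleotide arrays. Medians of the non-zero features were 0.01, 0.01 and 0.01 on the oligonucleotide arrays and -0.07, -0.09 and -0.02 on the cDNA arrays. A ratio of exactly 0 was set to missing and each array was centred on its median. Features naming 1 gene entered (18658 and 7410, from a table of the platform annotation), averaged per gene, where all 3 arrays had a value. The number of arrays limits the precision.

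The mean of 3 pools was tested against 0 with limma 3.58.1 (lmFit and eBayes) in R 4.3.3, per array type, with Benjamini-Hochberg adjustment over all genes, after a check on simulated data. The single control pool leaves out the spread between control animals. Arrays with 1 pool number read the same RNA by design, and their deviations correlated across genes at 0.06, 0.07 and 0.07. Alternatives changed the centring, zeros, feature averaging, prior, missing values, pool block and pools included. Members, the 7 lists and the pairs compared were chosen with earlier results of these data known. Named list genes were the up to 4 called genes of smallest p in each direction, plus Scd1, Elovl6, Srebf1, Srebf2, Nr1h3, Ppara and Mlxipl. Python 3.11.15, pandas 2.3.3 and matplotlib 3.10.9 made tables and plots.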

Additional observations from a re-analysis of the deposited data

Results flagged for a closer look

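Fads2 fell further on the cDNA array than on the oligonucleotide array, a difference of 0.72 on the log2 scale that passed the threshold (limma adjusted p = 0.0244) and did not with the pool as a block (adjusted p = 0.130).

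Elovl2 lay above 0 on all 3 oligonucleotide arrays and below 0 on all 3 cDNA arrays, a difference of 0.71 whose test narrowly missed the threshold (limma adjusted p = 0.0504).

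One cDNA feature is annotated to both Scd2 and Scd1 and entered no comparison. Its log2 ratios were 1.47, 2.14 and 0.80 (mean 1.47), all above 0, while the cDNA feature of Scd1 alone read 0.00, -1.07 and 0.04. The ratio of the shared feature cannot be assigned to either gene.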

How the results depend on the processing

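The 6 calls on the oligonucleotide array (4 higher, 2 lower) kept their number with no centring, centring on the features of 1 gene, zeros kept, feature medians, a robust prior and values on 2 of 3 arrays. With no shared prior 0 of the 8 genes were called (0 higher, 0 lower), 1 of the listed genes, against 79 with the prior, and 40 of all 16871 genes. With 1 pool left out, 4 to 6 of the 8 genes were called, 2 to 4 higher. Of all genes on the oligonucleotide array, 23.9% were called without pool 1, 29.2% without pool 2 and 37.0% without pool 3. With all pools the share was 43.4%, so counts in the lists also shrink with the array's total. With both array types together, 1 of the 4 genes was called, and 0 with zeros kept, with values on 2 of 3 arrays or with no shared prior, settings in which 0 of all genes were called. With 1 pool left out this count was 0 to 1, and without pool 1 or without pool 2 no gene at all was called. The count of these 4 genes that differed between array types was 1. It was 0 with a replicate block, 2 with no centring, and 0 to 1 with 1 pool left out. Of all genes 0 differed without pool 1 or without pool 2, and 22.3% without pool 3. No ratio of a called gene changed sign in any setting run. Centring on the features of 1 gene, a robust prior, no shared prior and values on 2 of 3 arrays were not run for the array-type test, so its dependence on them is unknown. No file gives signal over background, and the causes of these shifts were not tested.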
